A study of Mus musculus with 10 samples.

Results

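The 36 genes described here encode heat shock proteins, their co-chaperones, the subunits of the cytosolic chaperonin TRiC and the heat shock factors that regulate them. They were taken by symbol from a table of 35725 gene rows, and each symbol matched 1 row. All 36 passed the filter on low counts, within 15586 genes tested. The series holds 10 RNA libraries of sorted lung eosinophils, all from males: 5 of P2ry14-null and 5 of wild-type (WT) C57BL/6J mice. Mice of both groups had been sensitized through the oropharynx with 50 µg ovalbumin and 20 µg Aspergillus oryzae protease, and sensitization was repeated a week later. Both groups then breathed a 1% ovalbumin aerosol 7 days after the last dose, and cells were taken 16 h after that exposure. P2ry14 encodes a receptor for UDP-sugars, and the comparison asks how its loss changes the transcripts of lung eosinophils in this asthma model. The labels do not give the design of the null allele, the age of the mice, or whether each library is a separate mouse, so all errors and p-values describe the spread between these libraries, which may be technical.

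Chaperones bind unfolded proteins and use ATP to help them fold. When unfolded protein builds up, heat shock factor 1 (HSF1) is freed from chaperones, binds heat shock elements in promoters and raises the inducible chaperones, while constitutive relatives serve everyday folding. Eosinophils are granulocytes that store secreted proteins in their granules and take part in allergic airway inflammation.

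None of the 36 genes passed the threshold between genotypes. The log2 fold change was below 0 for 35 of them, against 48.8% of all tested genes. Among 62 other tested chaperone and related genes, described last, the share was 69.4%. Some of the 35 lay near 0, such as Dnajb11 (-0.01), Cdc37 (-0.03) and Bag1 (-0.04). The median log2 fold change was -0.45 over the 10 inducible genes and -0.09 over the 8 constitutive ones. Still, the inducible Dnaja1, Bag3, Chordc1, Hspb1 and Dnajb4 lay closer to 0 than the constitutive Hspa8 and Hsp90ab1. Dnajb1 lay closer to 0 than Hspa8 alone. In counts per 1e+06 reads (CPM, not scaled for gene length), the 10 inducible genes summed to 581 ± 88.4 CPM in WT and 415 ± 111 CPM in P2ry14-null (SD, n = 5 each). The edgeR quasi-likelihood test with Benjamini-Hochberg adjustment over all genes called 0 of the 36, where it called 0.0385% of all tested genes (0.0257% lower), P2ry14 included. DESeq2 called 1 of them, Dnajb1, against 0.116% of all genes (0.0734% lower). At an unadjusted edgeR p under 0.05, 18 of the 36 were lower in P2ry14-null and 0 were higher, beside 4.13% of all tested genes (2.67% lower). Over the 36, the median log2 fold change was -0.23, against 0.003 over all tested genes. These genes varied together from library to library, so the 18 are not 18 separate observations.

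As a check of the labels, P2ry14 had 211 ± 16.0 CPM in WT and 23.2 ± 1.02 CPM in P2ry14-null (SD, n = 5 each; log2 fold change -3.19 ± 0.06 SE, edgeR adjusted p = 3.74e-12). Library depth ran from 67.2 to 185 M reads (M, 1e+06), with P2ry14-null 1 the shallowest. Eosinophil markers (10 genes, among them Siglecf, Ccr3, Prg2 and Epx) summed to 8678 to 9144 CPM in WT and 8651 to 9291 CPM in P2ry14-null. Alox15 gave the largest part of that sum (means of 5013 CPM in WT and 5049 CPM in P2ry14-null). Of the 10, 5 had a log2 fold change above 0. The lowest was Prg3 at -0.43 ± 0.11 (SE) and the highest Epx at 0.23 ± 0.07, and both overlapped. P2ry14-null 2 stood apart in some markers of other cells. Alveolar macrophage markers reached 2206 CPM there against 741 to 866 CPM in the other P2ry14-null libraries, and epithelial markers 72.5 against 4.81 to 18.2 CPM. Most of the macrophage sum in P2ry14-null 2 was Chil3 (1520 CPM) and Car4 (590 CPM). Their WT means were 412 and 459 CPM, and which cells these reads came from was not tested. In P2ry14-null 2, Mrc1 had 32.5 CPM and Fabp4 5.50 CPM. Marco had 0.078 CPM there, below WT 2 at 0.142 CPM. Without P2ry14-null 2 the median log2 fold change of the inducible genes was -0.42, and with it -0.45. Neutrophil markers summed to 3693 to 4632 CPM in WT and 3689 to 5383 CPM in P2ry14-null, with P2ry14-null 4 the highest. Most of that sum was Retnlg (means of 3782 and 4103 CPM). Of the 6 neutrophil markers, 5 had a log2 fold change above 0, and none passed the edgeR threshold. The highest was S100a8 at 1.01 ± 0.38 (SE), with 4.65 CPM in P2ry14-null 2. Mast cell and basophil markers were lower on average in P2ry14-null, and all 6 had a log2 fold change below 0. None passed the edgeR threshold, and the smallest edgeR adjusted p was 0.53 (Hdc). Their sum was 88.8 to 103 CPM in WT and 58.5 to 81.6 CPM in P2ry14-null, without overlap. Most of that sum was Gata2 (46.8 CPM in WT, 40.1 CPM in P2ry14-null) and Hdc (46.0 and 29.3 CPM; DESeq2 adjusted p = 0.00325), each of which overlapped. The WT means of Cpa3, Mcpt8, Fcer1a and Ms4a2 were 0.395 to 0.585 CPM, and of these Cpa3 did not overlap. No marker of the list was at 0 in all libraries, and its part in the chaperone differences was not tested. In bulk RNA, fewer cells of a type and less RNA per cell cannot be told apart. Which cells the Gata2 and Hdc reads came from was not tested.

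Promoter sequences show which members carry the letters of a heat shock element. RefSeq windows on GRCm38.p6 (250 bases before to 50 after a transcript start) were found for 30 of the 36, and none for Hsp90aa1, Hspa8, Hsp90ab1, Hspa9, Cct4 or Hsf1. The 2-unit motif was GAANNTTC or TTCNNGAA, each its own reverse complement. The 3-unit motif was 3 alternating GAA and TTC units with 2 bases between neighbours, starting with either, read on both strands, so each 3-unit match contains 2-unit ones. A 2-unit match occurred in 15 of 30 members (50.0%), against 17.0% of all 27025 symbols with a window, and a 3-unit match in 5 of 30 (16.7%) against 0.662%. A symbol with several starts has several windows, and over single windows the shares were 15.1% and 0.603%. Over the 11655 tested genes with a window they were 14.5% and 0.583%. The member counts include the same stretch of DNA for both Hspd1 and Hspe1, and the near-identical copies Hspa1a and Hspa1b. By role, 8 of 9 inducible genes had a 2-unit match, and 2 of 6 constitutive genes. It was 1 of 5 among HSP90 co-chaperones and Hspa4l, 2 of 3 organelle genes, 2 of 6 TRiC subunits and 0 of 1 regulators. The 3-unit matches were in Chordc1, Hsph1, Hspd1, Hspe1 and the constitutive Dnajb6. Before the start alone, 6 of 9 inducible genes had a 2-unit match (14.5% of all symbols) and 0 a 3-unit match (0.514%). The stretches below are shown for the inducible genes that differed most and for the longest runs. Capitals mark the matched letters, and positions count from a RefSeq transcript start (-1 is the base before it).
Hspa1a, first matched base at -104, chr17:34972217-34972296, minus strand: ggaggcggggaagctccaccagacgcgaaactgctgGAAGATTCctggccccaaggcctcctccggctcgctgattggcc
Hspa1b, first matched base at -104, chr17:34959299-34959378, minus strand: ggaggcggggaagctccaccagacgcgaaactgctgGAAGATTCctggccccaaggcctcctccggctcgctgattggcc
Hsph1, first matched base at -54, chr5:149636326-149636405, minus strand: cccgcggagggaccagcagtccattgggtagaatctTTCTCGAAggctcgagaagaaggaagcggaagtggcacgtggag
Hsph1, first matched base at 16, chr5:149636280-149636308, minus strand: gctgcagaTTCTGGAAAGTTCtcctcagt
Chordc1, first matched base at -4, chr9:18292260-18292288, plus strand: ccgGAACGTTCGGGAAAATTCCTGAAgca
Dnaja1, first matched base at -124, chr4:40722308-40722387, plus strand: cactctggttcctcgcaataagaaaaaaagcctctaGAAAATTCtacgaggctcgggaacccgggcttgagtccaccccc
Hspe1, first matched base at -89, chr1:55088023-55088112, plus strand: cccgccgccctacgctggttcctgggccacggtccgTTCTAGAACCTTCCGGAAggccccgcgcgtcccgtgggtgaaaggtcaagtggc
Hspd1, first matched base at -144, chr1:55088023-55088112, minus strand: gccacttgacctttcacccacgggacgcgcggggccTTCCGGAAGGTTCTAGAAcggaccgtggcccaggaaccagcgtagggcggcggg

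The Hspa1a and Hspa1b stretches are the same letters, and over the 250 bases before the start the copies were 98.8% identical. Hspe1 and Hspd1 are transcribed away from each other, and the 18 matched bases, which hold 3 overlapping 2-unit matches, are the same DNA read on either strand. Chordc1 had the longest run, 23 bases with 4 overlapping matches across its start. Dnajb1 had 0 matches in its windows. The 15 members with a 2-unit match had a median log2 fold change of -0.28, and the 15 without one had -0.16, given as a description. A match is no evidence of binding.

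Hspa1a and Hspa1b, the stress-inducible HSP70 genes, were low in these cells and had the largest fold changes of the 36 with all libraries included; without WT 4, Hspa1a (-0.69) came after Hsph1 (-1.02). The 2 HSP70 genes lie side by side on chromosome 17 (mm10; Hspa1a, gene ID 193740, 34969359 to 34972156, and Hspa1b, gene ID 15511, 34956429 to 34959238, both on the minus strand). Their near-identical sequence makes the split of reads between them uncertain, and Hspa1a shares 564 exon bases with Gm20481 on the opposite strand in GENCODE vM21. Hspa1b measured 9.32, 5.66, 5.74, 11.1 and 4.98 CPM in WT 1 to 5 and 1.26, 1.82, 5.77, 3.83 and 0.891 CPM in P2ry14-null 1 to 5. WT 4 and WT 1 were high, P2ry14-null 3 lay within the WT range, and the groups overlapped through it alone. This gave a log2 fold change of -1.43 with an SE of 0.43 and an edgeR adjusted p of 0.999. For Hspa1a the values were 1.83, 1.23, 1.51, 4.10 and 1.18 CPM in WT and 0.504, 0.824, 1.36, 1.15 and 0.538 CPM in P2ry14-null. WT 4 lay above all other libraries, and without it the log2 fold change of Hspa1a went from -1.16 ± 0.37 to -0.69. Summed over both copies, WT had 9.33 ± 3.81 CPM and P2ry14-null 3.59 ± 2.42 CPM (SD, n = 5 each). Hspa1a rested on 34 to 641 reads per library.

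Dnajb1 was the member with the smallest p and the sole one whose groups did not overlap; 0.648% of all tested genes did not overlap, 0.359% in the lower direction. It encodes an HSP40 protein that hands clients to HSP70 and starts its ATP hydrolysis (gene ID 81489, chromosome 8 at 83608175 to 83612653, plus strand). It measured 73.4, 64.8, 56.3, 58.7 and 58.2 CPM in WT 1 to 5 and 41.9, 40.8, 54.8, 47.6 and 40.2 CPM in P2ry14-null 1 to 5. The closest libraries were WT 3 and P2ry14-null 3. The means were 62.3 ± 6.99 and 45.1 ± 6.19 CPM (SD, n = 5 each), a log2 fold change of -0.47 ± 0.09 (SE; edgeR adjusted p = 0.400). The DESeq2 adjusted p was 0.00422.

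The other inducible genes were lower on average in P2ry14-null but overlapped. Hsph1, an HSP110 protein that exchanges nucleotide on HSP70, measured 96.6, 76.5, 74.3, 30.9 and 80.7 CPM in WT and 24.9, 38.7, 75.8, 42.0 and 19.6 CPM in P2ry14-null. WT 4, the library highest in Hspa1a and Hspa1b, was the lowest WT library here and lay below 3 of the P2ry14-null libraries. For Hsph1 this is a log2 fold change of -0.83 ± 0.34 (SE), and the edgeR adjusted p was 0.999. Hsp90aa1, the inducible HSP90, measured 196, 144, 159, 125 and 161 CPM in WT and 87.6, 96.8, 158, 112 and 80.9 CPM in P2ry14-null. P2ry14-null 3 again lay among the WT libraries and the other 4 lay below all of them (log2 fold change -0.55 ± 0.17). Dnaja1, an HSP40 partner of HSP70 in the cytosol, measured 216, 164, 189, 158 and 167 CPM in WT and 115, 105, 189, 155 and 98.9 CPM in P2ry14-null. Here P2ry14-null 3 lay above 4 WT libraries and the other 4 P2ry14-null libraries below all of them (-0.43 ± 0.16). Reads of Dnaja1 may include Smu1, with which it shares 608 exon bases on the opposite strand.

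Bag3, which links HSP70 to selective autophagy, measured 19.7, 17.1, 14.95, 12.7 and 14.98 CPM in WT and 11.2, 12.7, 13.99, 12.2 and 10.8 CPM in P2ry14-null. WT 4 was the sole WT library within the P2ry14-null range (log2 fold change -0.38 ± 0.11 SE). Chordc1, an HSP90 co-chaperone, measured 55.3, 44.1, 57.3, 31.9 and 46.7 CPM in WT and 32.9, 35.4, 52.7, 41.8 and 30.6 CPM in P2ry14-null, and here too WT 4 was the low WT library (-0.28 ± 0.17). Dnajb4, another HSP40, measured 46.0, 33.2, 41.8, 37.3 and 35.3 CPM in WT and 33.1, 30.3, 39.6, 41.0 and 35.9 CPM in P2ry14-null, with wide overlap (-0.11 ± 0.10, and -0.04 without WT 1). Hspb1, a small heat shock protein abundant in muscle and epithelium, was close to undetected. It had 0.137, 0.117, 0.055, 0.115 and 0.061 CPM in WT and 0.074, 0.110, 0.088, 0.031 and 0.090 CPM in P2ry14-null, which is 4 to 18 reads per library, too few to compare the groups. Of these 10 inducible genes, 7 had an unadjusted p under 0.05 (4.13% of all tested genes, 2.67% lower), and all 10 had a log2 fold change below 0 under every alternative run.

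**Figure D1:**
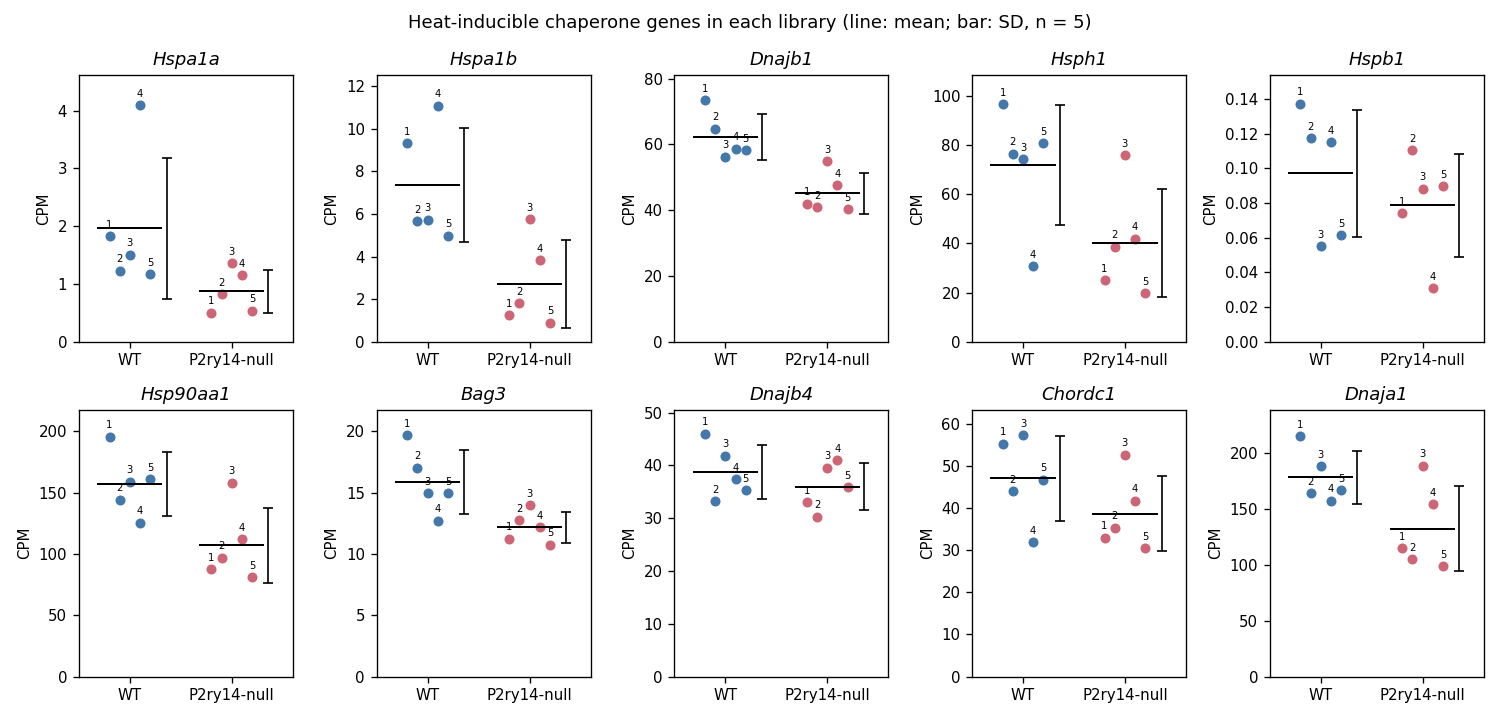
CPM of the 10 inducible chaperone genes (vertical axis, from 0) in each WT and P2ry14-null library; numbers are replicate numbers, lines are means and bars SD (n = 5). P2ry14-null 3 lies within or near the WT range in most panels, and WT 4 is the highest library for Hspa1a (4.10 CPM) but the lowest WT library for Hsph1 (30.9 CPM).

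Among the constitutive chaperones, the 2 with the highest CPM had the largest differences. Hspa8, the constitutive HSP70, measured 648, 548, 560, 473 and 628 CPM in WT and 324, 391, 595, 460 and 250 CPM in P2ry14-null. P2ry14-null 3 exceeded 3 WT libraries and the other 4 lay below all WT libraries, giving a log2 fold change of -0.50 ± 0.18 (SE; edgeR adjusted p = 0.999). Hsp90ab1, the constitutive HSP90, measured 827, 764, 685, 604 and 810 CPM in WT and 510, 543, 755, 521 and 354 CPM in P2ry14-null, with the same single overlap (-0.46 ± 0.16). Both genes are constitutive by name but also respond to heat. The remaining 6 had log2 fold changes from -0.26 to -0.03 and none had an unadjusted p under 0.05. They were Ptges3 (p23, which steadies closed HSP90; -0.26 ± 0.14), Dnajb6 (an HSP40 that holds back aggregation; -0.09 ± 0.06), Hspa4 (an HSP110 relative; -0.09 ± 0.05), Dnaja2 (an HSP40; -0.07 ± 0.07), Bag1 (a nucleotide exchange factor of HSP70; -0.04 ± 0.05) and Cdc37 (which brings kinases to HSP90; -0.03 ± 0.06). Without WT 1, Bag1 and Cdc37 turned to 0.007 and 0.012, and Hspa4 was at -0.06. Without WT 3, Ptges3 was at -0.15 and Dnaja2 at -0.02, and without WT 4 Dnajb6 was at -0.05.

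Ratios within a library do not depend on library scaling, and they set inducible against constitutive relatives. Levels were divided by the length of all annotated exons of each gene in GENCODE vM21, since the authors' annotation was not given. That length pools all transcript forms of a gene, so the percents are approximate. Per kilobase, Hspa1a plus Hspa1b stood at 2.57 ± 1.34% of Hspa8 in WT and 1.23 ± 0.464% in P2ry14-null (SD, n = 5 each). The WT values were 2.61, 1.91, 1.96, 4.85 and 1.49%, and those of P2ry14-null 0.823, 1.02, 1.82, 1.64 and 0.861%, which overlapped through WT 5. Dnaja1 stood at 62.7, 58.7, 53.2, 56.1 and 55.4% of Dnaja2 in WT and at 38.5, 37.1, 59.4, 50.5 and 34.8% in P2ry14-null, which overlapped through P2ry14-null 3. These percents rest on exon lengths of 8629 bases for Dnaja1 and 2975 for Dnaja2. Before that division Dnaja1 had the higher means, 179 against 108 CPM in WT and 133 against 103 CPM in P2ry14-null. Hsph1 stood at 33.2 ± 11.04% of Hspa4 in WT and 19.6 ± 9.98% in P2ry14-null. By contrast, Hsp90aa1 was 16.2 ± 1.59% of Hsp90ab1 in WT and 15.3 ± 1.86% in P2ry14-null. On the log2 scale this HSP90 ratio differed by -0.09 ± 0.10 (SE), within its error, and both HSP90 genes had lower means in P2ry14-null. The HSP70 ratio differed by -1.002 ± 0.38, the Dnaja1 to Dnaja2 ratio by -0.40 ± 0.15 and the Hsph1 to Hspa4 ratio by -0.81 ± 0.43.

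**Figure D2:**
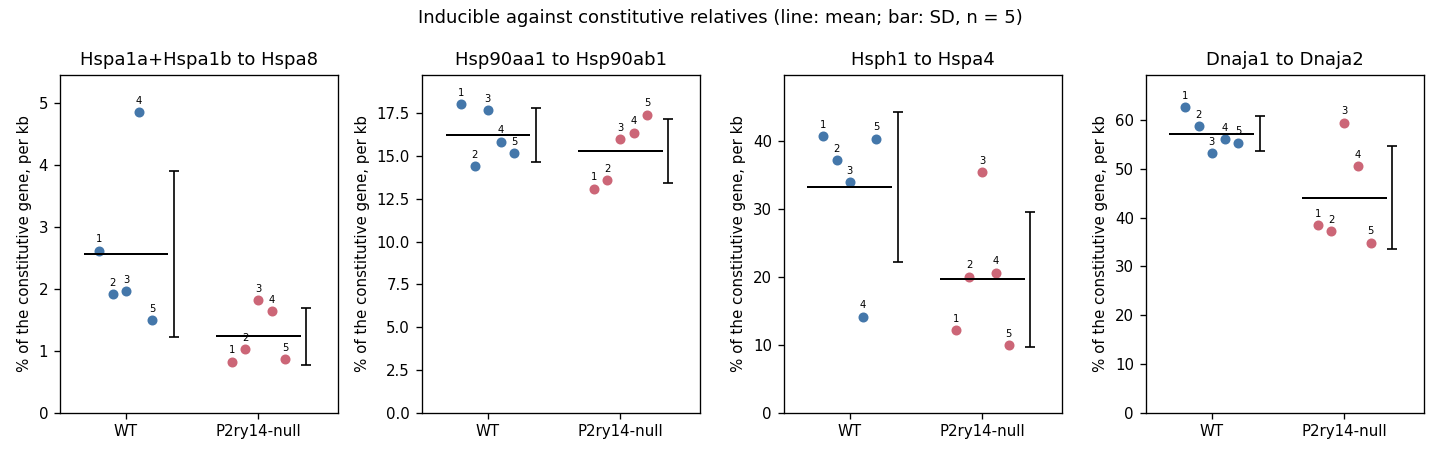
Level per kilobase of the inducible gene as a percent of its constitutive relative (vertical axis, from 0) in each library; numbers are replicate numbers, lines are means and bars SD (n = 5). The HSP90 ratio is alike in both groups (means 16.2 and 15.3%), while the HSP70 ratio is 2.57% in WT and 1.23% in P2ry14-null.

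Over whole lists, the mean log2 CPM of the 10 inducible genes minus that of the 15 constitutive and TRiC genes was -2.67, -2.85, -2.88, -2.71 and -2.96 in WT 1 to 5. In P2ry14-null 1 to 5 it was -3.50, -3.27, -2.87, -3.18 and -3.45. P2ry14-null 3 lay within the WT range and the other 4 lay below it. The difference was -0.44 (WT SD 0.12, P2ry14-null SD 0.25), given without a test because the lists were chosen with results of these data known. Without Hspa1a and Hspa1b it was -0.25, and without P2ry14-null 3 it was -0.54.

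HSP90 co-chaperones and Hspa4l followed the inducible genes. Stip1, the adaptor that joins HSP70 to HSP90, measured 131, 109, 100, 76.9 and 117 CPM in WT and 68.4, 78.3, 113, 78.5 and 53.9 CPM in P2ry14-null. WT 4 was low and P2ry14-null 3 high within their groups (log2 fold change -0.45 ± 0.17 SE). Cacybp, a co-chaperone that also binds ubiquitin ligase components, measured 52.7, 37.8, 51.9, 27.1 and 43.0 CPM in WT and 23.2, 27.0, 45.5, 33.5 and 21.2 CPM in P2ry14-null, with the same libraries apart (-0.50 ± 0.21). Hspa4l, an HSP110 relative, was at -0.26 ± 0.13, the immunophilin Fkbp4 at -0.22 ± 0.12 and Ahsa1, the activator of HSP90 ATP hydrolysis, at -0.18 ± 0.09. Without P2ry14-null 5, Fkbp4 was at -0.13. Of the 5, Stip1 and Cacybp had an unadjusted p under 0.05, beside the same 4.13% of all tested genes.

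In mitochondria, Hspd1 (HSP60) and Hspe1 (HSP10) form the folding chamber and its lid, and they share the promoter stretch printed above. Hspd1 measured 101, 82.8, 87.5, 63.9 and 89.7 CPM in WT and 56.5, 65.2, 88.6, 73.2 and 52.7 CPM in P2ry14-null. Hspe1 measured 10.7, 9.41, 8.30, 6.70 and 7.53 CPM in WT and 5.54, 6.33, 8.08, 5.63 and 5.26 CPM in P2ry14-null. Both had WT 4 as the lowest WT library and P2ry14-null 3 as the highest P2ry14-null library. Their log2 fold changes were -0.34 ± 0.14 and -0.46 ± 0.14 (SE; edgeR adjusted p = 0.999 each), and they share 112 exon bases on opposite strands. Hspa9, the mitochondrial HSP70, measured 102, 89.1, 91.2, 83.4 and 91.6 CPM in WT and 81.8, 82.1, 85.7, 81.4 and 75.0 CPM in P2ry14-null. It varied little, with P2ry14-null 3 alone within the WT range (-0.17 ± 0.06). Dnajb11, an HSP40 of the endoplasmic reticulum, had 94.9 ± 4.37 CPM in WT and 94.5 ± 4.40 CPM in P2ry14-null (SD, n = 5 each; log2 fold change -0.01 ± 0.05).

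TRiC is the barrel-shaped chaperonin that folds actin and tubulin. Its 7 subunits among the members had log2 fold changes from -0.23 to -0.08, all 7 below 0 under every alternative run, with 4 at an unadjusted p under 0.05 (4.13% of all tested genes, 2.67% lower). Cct4 measured 141, 121, 125, 102 and 120 CPM in WT and 92.3, 100.3, 119, 114 and 93.2 CPM in P2ry14-null (-0.23 ± 0.09 SE). Cct5 measured 132, 114, 110.1, 102 and 114 CPM in WT and 96.5, 99.1, 112, 102 and 85.1 CPM in P2ry14-null (-0.21 ± 0.08). In both, WT 1 was the highest library, and WT 4 lay among the P2ry14-null libraries. Cct7 measured 137, 120, 107, 105 and 109 CPM in WT and 105, 104, 110, 103 and 96.3 CPM in P2ry14-null (-0.16 ± 0.07, and -0.09 without WT 1). Tcp1 measured 85.4, 74.6, 75.2, 65.6 and 74.7 CPM in WT and 63.7, 68.9, 72.2, 72.0 and 60.4 CPM in P2ry14-null (-0.16 ± 0.07). Cct3, Cct8 and Cct2 were at -0.18 ± 0.09, -0.13 ± 0.07 and -0.08 ± 0.06, and Cct2 was at -0.03 without WT 1. WT 1 was the highest of all libraries for 7 of 7 subunits, and P2ry14-null 5 the lowest for 6. On the opposite strand, Tcp1 shares 571 exon bases with Acat3, Cct7 214 with Pradc1 and Cct8 192 with Usp16.

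Neither of the 2 regulators had an unadjusted p under 0.05. Hsf1, whose protein is controlled mainly after translation, measured 56.9, 58.9, 52.4, 59.8 and 60.7 CPM in WT and 54.6, 57.5, 60.4, 54.8 and 51.5 CPM in P2ry14-null (log2 fold change -0.05 ± 0.05 SE). WT 1, high in most chaperones, was not the highest for Hsf1, and the groups overlapped widely. Hsf2 was the sole member above 0, at 1.24 ± 0.20 CPM in WT and 1.49 ± 0.24 CPM in P2ry14-null (SD, n = 5 each; 0.26 ± 0.14).

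**Figure D3:**
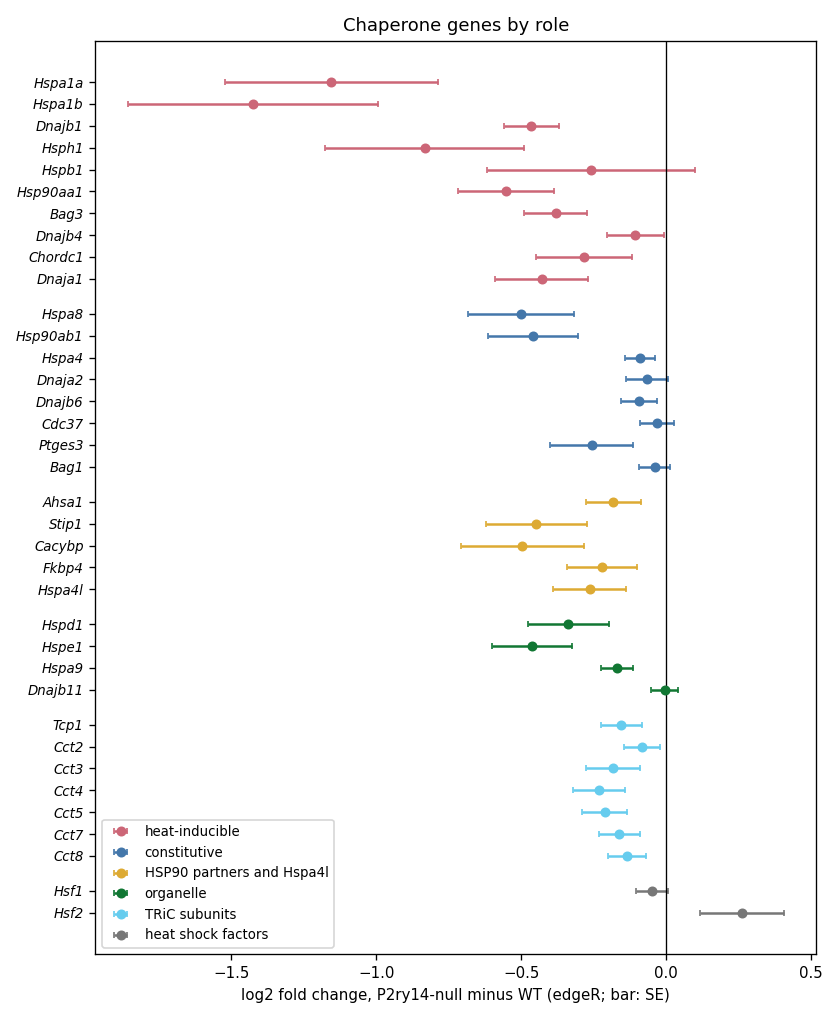
Log2 fold change of each member, P2ry14-null minus WT (horizontal axis, edgeR), with bars of 1 SE, coloured by role. All members but Hsf2 lie left of 0, from Hspa1b at -1.43 to Dnajb11 at -0.01.

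Within each genotype, the same libraries were high or low across the roles other than the regulators. WT 1 was the highest of the 10 libraries for 26 of the 36 members, and P2ry14-null 5 was the lowest for 26. For Hsf2, P2ry14-null 5 was the highest library and WT 1 next to the lowest. No share over all tested genes was computed for these counts, nor for those of the TRiC subunits. P2ry14-null 3 had a median place of 4 over the 36 members and WT 4 of 6.5, with 1 as the highest. WT 4 departed from the shared order: it was highest for Hspa1a and Hspa1b and the lowest WT library for Hsph1, Hsp90aa1, Chordc1, Stip1, Cacybp, Hspd1, Hspa8 and Hsp90ab1. Leaving out P2ry14-null 3 raised the members without overlap from 1 to 10, while the share over all tested genes in that direction rose from 0.359% to 1.00%. The 10 were Hspa1a, Hspa1b, Dnajb1, Hsp90aa1, Dnaja1, Hspa8, Hsp90ab1, Hspe1, Hspa9 and Cct5. Without WT 4 it was 5 members (0.847% of all genes). The count at an unadjusted p under 0.05 was 10 without WT 1 (3.63% of all tested genes), 11 without P2ry14-null 1 (3.48%) and 10 without P2ry14-null 5 (2.97%). It was 26 without WT 4 (4.47%) and 26 without P2ry14-null 3 (5.06%).

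**Figure D4:**
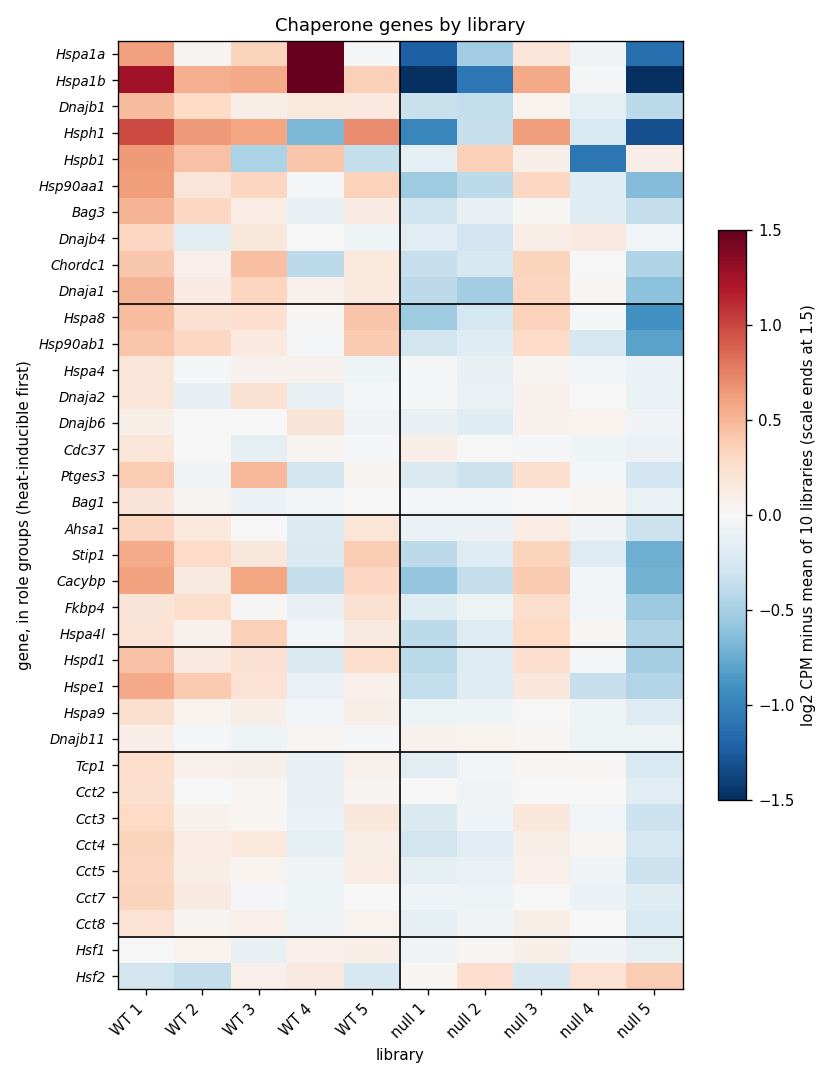
Log2 CPM of each member (rows, in role groups) in each library (columns) minus its mean over the 10 libraries; red is higher and blue lower, with the colour scale ending at 1.5. WT 1 is red and P2ry14-null 5 blue for most members, P2ry14-null 3 resembles WT, and in WT 4 Hspa1a and Hspa1b are red while Hsph1 and Chordc1 are blue.

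The spread within genotypes was large for some members and small for others. With group means removed, the SD of log2 CPM was 0.70 for Hsph1, and among 7630 tested genes with a mean of at least 10 CPM only 9 had a larger one. It was 0.42 for Cacybp (44 genes larger), 0.36 for Hspa8 (62), 0.34 for Stip1 (72), 0.33 for Chordc1 (82), 0.32 for Hsp90aa1 (95), 0.31 for Dnaja1 (99) and 0.30 for Hsp90ab1 (105). Below 10 CPM, Hspa1b had an SD of 0.86 and Hspa1a of 0.68. Hsf1, Hspa4, Cdc37, Bag1 and Dnajb11 varied little, with SDs from 0.07 to 0.09. Dnajb1 lay between these members, at 0.17, and 699 of the 7630 genes of at least 10 CPM had a larger SD.

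**Figure D5:**
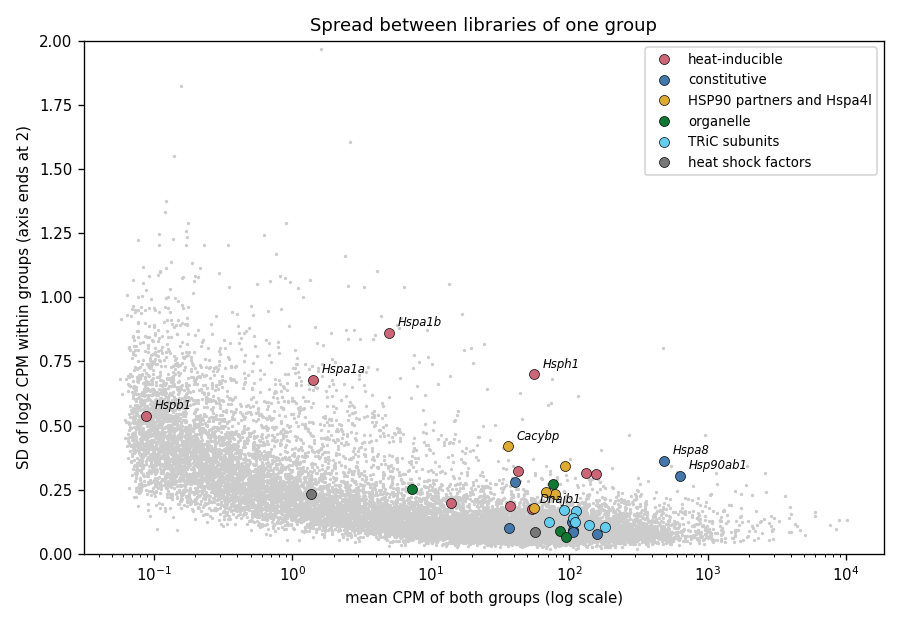
SD of log2 CPM within genotypes (vertical axis) against mean CPM of both groups (log scale) for all tested genes (grey; 1 gene lies beyond the axis end) and the members by role. Hspa1b (0.86), Hsph1 (0.70), Cacybp (0.42) and Hspa8 (0.36) are among the members with a wide spread, while Hsf1 and the TRiC subunits lie within the cloud of all genes.

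Genes of other chaperones, co-chaperones and some related factors, 64 in number and outside the 36, were listed by family. Of these, 62 were tested (Hspa12a and Hspb8 fell below the filter) and 0 passed in edgeR or DESeq2. At an unadjusted p under 0.05, 2 were lower (Dnajb2 and Hspa5) and 0 higher, beside 4.13% of all genes, and the median log2 fold change was -0.04. Hspa5 (BiP), the HSP70 of the endoplasmic reticulum, had 804 CPM in WT and 636 CPM in P2ry14-null (-0.34 ± 0.11 SE). WT 4 was high at 1067 CPM against 685 to 823 CPM in the other WT libraries, and without it Hspa5 was at -0.21. Hsp90b1, the HSP90 of the same compartment, had 888 and 832 CPM (-0.09 ± 0.06, and -0.05 without P2ry14-null 5). In the cytosol, Dnajb2 was at -0.23 ± 0.08 and Hspa2 at -0.31 ± 0.15, or -0.11 without WT 4. In a mixed list of HSP90 partners and genes that are not chaperones, Dedd2 (not an HSP90 partner) was at -0.20 ± 0.09. There Unc45a, the myosin chaperone, was at -0.18 ± 0.08, or -0.09 without WT 4. Cct6a, a TRiC subunit outside the 36, was at -0.17 ± 0.08, and the prefoldin subunit Pfdn5 at -0.13 ± 0.08, or -0.06 without WT 1.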

How the data were processed

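The authors deposited a table of whole-number read counts per gene for the 10 libraries, with mm10 positions per the file header. The submitters' processing notes name STAR 2.5, featureCounts 1.5.0-p1 (Subread) and DESeq2. Annotation release, strand setting and handling of multi-mapped reads were not found in the labels or header, so close copies and opposite-strand neighbours are uncertain. Columns were matched to samples by title.

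On these counts, edgeR 4.0.16 (R 4.3.3) was fitted to all genes that passed its filterByExpr defaults, scaled by TMM, with genotype as the sole term. P-values were adjusted by Benjamini-Hochberg with a threshold of 0.05, and the code was tested on simulated data. Fold changes set P2ry14-null over WT, and each SE was derived from the F statistic. CPM uses TMM-scaled library sizes, and log2 CPM a prior count of 2. DESeq2 1.42.0, other scalings, no filter, a replicate block and leaving out each library were alternatives. No libraries of a group agreed within sampling noise (chi-square 23.1 or more per gene).

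Members, roles and lists were chosen with earlier results of these data known. Values in every library are given for the inducible genes, Hspa8, Hsp90ab1, Hsf1 and any member with an unadjusted p under 0.05. Genes of the other lists are named if called, else by the 2 smallest p per list, with Hspa5 and Hsp90b1 added. A count of 3 reads equals 0.0162 to 0.0447 CPM, which covers counting error only.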

Additional observations from a re-analysis of the deposited data

Results flagged for a closer look

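Among 124 sets of 5 libraries checked for 1 library far from the other 4, 6 were marked, and chance marks about 1 set in 20. WT 4 had 4.10 CPM of Hspa1a, where the other WT libraries had 1.18 to 1.83 CPM. In the same library Hsph1 stood at 14.1% of Hspa4 per kilobase, against 33.9 to 40.7% in the other WT libraries. WT 1 had a mean log2 CPM of 4.52 over the inducible genes, against 4.04 to 4.16 in the others. P2ry14-null 2 had 2206 CPM of alveolar macrophage markers, mostly Chil3 and Car4 (741 to 866 in the others). It also had 426 CPM of class II antigen presentation markers (74.4 to 120) and 72.5 CPM of epithelial markers (4.81 to 18.2).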

How the results depend on the processing

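Over all genes, edgeR called 6, DESeq2 19 and DESeq2 with the replicate block 44; leaving out single libraries gave 3 to 5. Of the 36 members, DESeq2 called 1 (Dnajb1) and, with the replicate block, 3 (Dnajb1, Hspa1a and Hspe1). edgeR called 0 with the replicate block and in every other alternative. The labels do not say what same-numbered libraries share. Their deviations from group means had correlations from -0.0933 to 0.094, and 1 of 5 P2ry14-null libraries correlated best with its own number. So few pairs cannot show whether the numbers mark a shared litter or day. The block changed no other member's call. The 3-unit motif alone was found in 5 members, against 15 for the shorter one. Of 704 log2 fold changes (44 listed genes under 16 alternatives), 697 kept their sign. Dnajb11 turned to 0.0253 with library size alone and ran from -0.0237 to 0.0192 without single libraries, Cdc37 from -0.0666 to 0.0116 and Bag1 from -0.066 to 0.0065; the cause was not tested. The inducible minus constitutive difference ran from -0.54 to -0.38 without single libraries. Counts at an unadjusted p and counts without overlap were recomputed as alternatives chosen after seeing the data. Depth limits Hspb1 most.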
